A study of Mus musculus with 2 samples.

Results

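The complement components and receptors described here are 8 genes chosen by symbol out of 26124 counted in single-cell RNA sequencing of mouse spleen: C1qa, C1qb and C1qc, the 3 chains of C1q; C3, the central component; Cfp (properdin) and Cfb (factor B) of the alternative pathway; and C5ar1 and C3ar1, the receptors of the C5a and C3a peptides. All 8 were found in the gene lists of both libraries. The study asked how the hemolysis of sickle cell disease (SCD) alters spleen dendritic cells. One library came from a wild-type mouse, which is a non-sickling control that is itself genetically modified: homozygous for Hbatm1Paz, heterozygous for Hbbtm1Tow and hemizygous for the human hemoglobin transgene Tg(HBA-HBBs)41Paz. The other came from an SCD mouse homozygous for all of these alleles, which sickles. Both were untreated Berkeley-strain animals aged 12 to 16 weeks on a mixed background. Both suspensions were freed of erythrocytes by lysis and enriched for dendritic cells by removal of other cells on beads, so that the shares of cell types are those left by the enrichment and not those of the spleen. With 1 mouse per genotype there was no replicate and no test. Every interval below is a 95% interval of counting error only, and every difference is a difference between these 2 libraries.

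Complement is a cascade of plasma proteins that tags particles and immune complexes for uptake. C1q starts the classical pathway when it binds antibody or altered surfaces, each C1q molecule being built from A, B and C chains. C3 is cleaved where the pathways meet, and its fragments coat targets. Properdin stabilises the alternative pathway convertase that factor B helps to form, and the small peptides C3a and C5a recruit and activate leukocytes through their receptors. Most complement protein in blood is made by the liver, but myeloid cells make several components locally, and tissue macrophages are a known source of C1q.

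From the wild-type mouse came 10845 cells and 97880318 UMIs (unique molecular identifiers, each 1 captured RNA molecule), and from the SCD mouse 13447 cells and 189688217 UMIs. After filters on detected genes and on mitochondrial and ribosomal shares, 9423 and 10635 cells were kept. They held 60845405 and 99608356 UMIs, with medians of 4884 and 8282 per cell. The libraries shared 88 cell barcodes. The kept cells formed 24 clusters, made without any complement gene and named from marker lists, so the names below mean cells like the named type. The classes with at least 50 cells in each library were neutrophils (4306 wild-type and 6476 SCD cells), promyelocytes (67 and 722), classical monocytes (697 and 1471), non-classical monocytes (439 and 69), cDC1 (160 and 198), cDC2 (1675 and 369), mature dendritic cells (618 and 86), plasmacytoid dendritic cells or pDC (762 and 544), red pulp macrophages (287 and 156) and erythroid cells (54 and 51). The B cell class, with 21 wild-type cells, and 2 unnamed clusters entered no comparison of classes between libraries. Their cells did enter the values over all kept cells, including those with cluster shares. The markers that gave each class its name were then counted in it, which is no separate check of the name. The promyelocytes had 20 or more UMIs for all 6 of their markers in both libraries, the erythroid cells for 9 of 10 in wild-type and 8 of 10 in SCD, and the cDC2 for 9 of 10, while the other classes had that many for every marker.

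Most C1q UMIs lay in red pulp macrophages. Levels are given as CPM, a gene's UMIs scaled to a fixed total of UMIs of the class. C1qa stood at 4184 CPM in wild-type red pulp macrophages (2589 UMIs) and at 4855 in those of the SCD library (2039 UMIs). C1qb stood at 2318 and 3203 CPM, and C1qc at 2953 and 3429. Of all C1qa UMIs in the kept cells, 85.3% in wild-type and 82.1% in SCD lay in this class, which held 3.05% and 1.47% of the cells. The corresponding shares were 86.2% and 80.3% for C1qb and 87.0% and 81.6% for C1qc. Red pulp macrophages are the iron-recycling macrophages that clear old erythrocytes, and together the 3 chains took 0.946% of the class's UMIs in wild-type and 1.15% in SCD.

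The chains were found together in single cells. After thinning each cell to 1000 UMIs, which left out 80 of 287 wild-type and 20 of 156 SCD macrophages as too shallow, all 3 chains were detected in 82.1% of macrophages in wild-type and 86.0% in SCD. C1qa was detected in 97.1% (interval 93.8 to 98.9) and 98.5% (94.8 to 99.8), and without thinning in 283 of 287 and 156 of 156. In neutrophils, which are not known to make C1q, the thinned share for C1qa was 0.704% and 0.356%, at median depths of 2437 and 6372 UMIs against 1332 and 1543.5 in the macrophages. A macrophage carried a median of 14.0 C1q UMIs in wild-type, with a range from 0 to 129, and 18.0 in SCD, with a range from 3 to 215. In wild-type 2 macrophages had none, and in SCD 0 did.

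The 3 genes lie side by side on the minus strand of chromosome 4 in the build GRCm38, at chr4:136880129-136886187 for C1qb, chr4:136889804-136893065 for C1qc and chr4:136895917-136898803 for C1qa, within 18675 bases. Over the 21 combinations of class and library with at least 50 cells, their log2 levels moved together, with a Pearson correlation of 0.9945 between C1qa and C1qb, 0.9954 between C1qa and C1qc and 0.9972 between C1qb and C1qc. This is a description across cell types that share libraries and depth. Because the chains shared one pattern, their promoters are shown where RefSeq windows for GRCm38.p6 were at hand, for C1qb and C1qc. The bases lie before the RefSeq start and outside the annotated gene, and read 5′ to 3′ on the gene's strand. Capitals mark GAGGAA, a core bound by the myeloid factor PU.1, and TGCTGA, a site core of Maf factors, on either strand (TTCCTC and TCAGCA when reversed). The C1qb sequence is chr4:136886201-136886450 and the C1qc sequence chr4:136893066-136893164. For C1qc only the outer 99 of the 250 bases are printed, since the 151 bases next to the RefSeq start lie inside the annotated gene. Motifs were searched in all 250 bases, and positions count back from the RefSeq start, not from the end of the printed run.
C1qb: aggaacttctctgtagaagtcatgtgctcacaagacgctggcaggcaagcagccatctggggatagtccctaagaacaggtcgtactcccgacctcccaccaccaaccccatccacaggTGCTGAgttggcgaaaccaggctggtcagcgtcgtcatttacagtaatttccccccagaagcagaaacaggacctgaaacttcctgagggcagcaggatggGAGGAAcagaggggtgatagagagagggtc
C1qc: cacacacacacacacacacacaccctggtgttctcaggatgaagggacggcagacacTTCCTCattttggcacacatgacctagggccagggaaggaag
The PU.1 core was in both, at position -30 from the start in C1qb and, reversed, at -193 in C1qc. The Maf site core was in C1qb only, at position -131. Among all 32851 promoter windows of 250 bases, 23.3% held the PU.1 core and 16.1% the Maf site core, so either match is common. GAAANNGAA, an interferon response motif, and TTCNNNGAA, a STAT motif, were in neither window and in 7.13% and 7.02% of all windows. Both strands were searched, the marked matches do not overlap, and a match is only a run of letters.

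In red pulp macrophages, 4 of the 8 members were expressed, defined throughout as at least 50 CPM and 20 UMIs in 1 library, and 0 of them differed by 2-fold between the libraries, when 8.18% of all 3873 expressed genes did. The SCD to wild-type ratio was 1.16 for C1qa (interval 1.09 to 1.23), 1.38 for C1qb (1.28 to 1.49) and 1.16 for C1qc (1.08 to 1.25). All 3 chains were higher in the SCD macrophages, by less than 2-fold and by more than counting error. The 11 markers of the class summed to 21960 and 26160 CPM, and for 100 C1q UMIs there were 232 marker UMIs in wild-type and 228 in SCD. The sum hid opposite directions, since 4 of the markers were higher in SCD and 7 lower. Hmox1, which encodes a heme-degrading enzyme, was 4954 and 9303 CPM, whereas the scavenger receptor gene Cd163 was 520 and 164. The median log2 ratio of the expressed members was 0.21, and that of all expressed genes of the class -0.06. With 1 mouse a group, whether mice of a genotype differ by as much is unknown. The fourth expressed member was Cfp, at 1020 and 995 CPM, the highest level of properdin in any class of either library, with a ratio of 0.976 (interval 0.861 to 1.11). C3 was low in these cells, with 28 UMIs in wild-type and 8 in SCD.

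**Figure D1:**
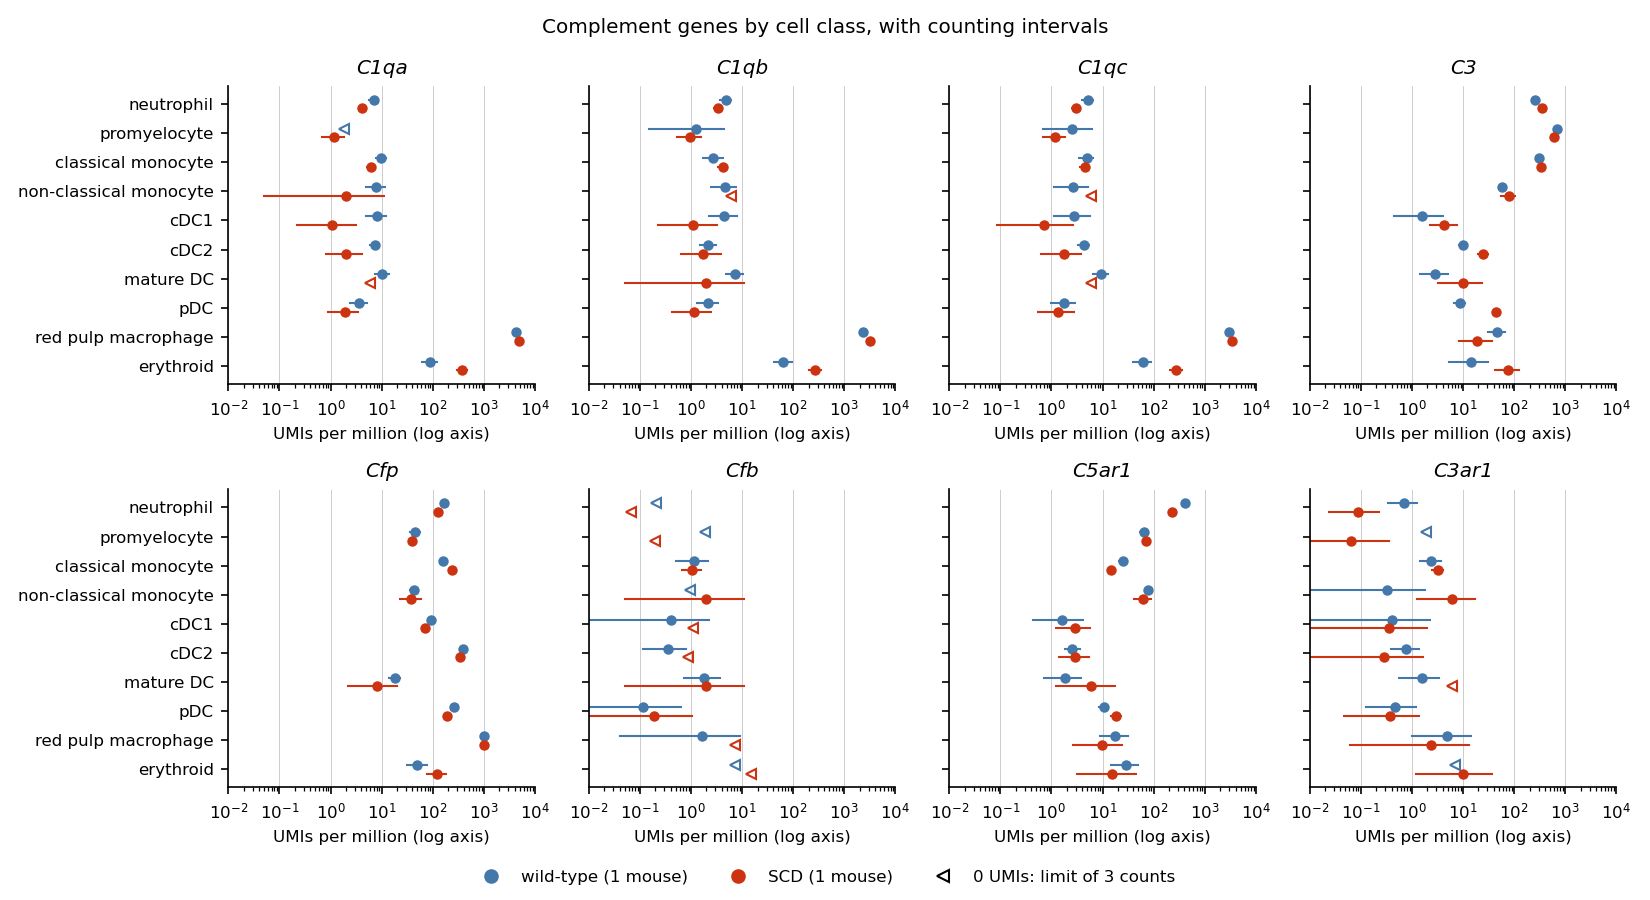
Level of each complement gene, in CPM on a log axis, in the 10 cell classes of the wild-type (blue) and the SCD (red) library. Points are sums over the cells of a class with 95% counting intervals, and open triangles mark 0 UMIs at the limit that 3 counts would give. C1q peaks in red pulp macrophages at 2318 CPM or more, C3 in promyelocytes and C5ar1 in neutrophils.

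Over all kept cells the picture for C1q was the opposite of that within macrophages. C1qa stood at 49.9 CPM in the wild-type library and 24.9 in the SCD library, a ratio of 0.500 (interval 0.474 to 0.527). C1qb went from 27.4 to 16.8, and C1qc from 34.5 to 17.7. When both libraries were given the class shares of the wild-type library, as shares of cells, so that differences in UMIs per cell remain, the ratio became 1.05 for C1qa, 1.27 for C1qb and 1.07 for C1qc. The lower totals went with the smaller share of macrophages among the SCD cells. With 1 enriched suspension per genotype, genotype, mouse and cell preparation cannot be told apart in such shares.

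Outside macrophages, C1q was low except in the erythroid class. In wild-type, C1qa lay between 3.56 and 10.4 CPM in 7 of the other 9 classes, was not seen in promyelocytes, and reached 87.6 in erythroid cells. In SCD it was at or under 6.08 in 8 classes and at 374.5 in erythroid cells. The intervals of neighbouring classes overlapped through most of this low range. Red pulp macrophages stood 47.8-fold above the next class in wild-type and 12.96-fold in SCD, and that next class was the erythroid one both times.

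The erythroid class held the only members past 2-fold among those expressed. C1qa had 37 UMIs in 54 wild-type cells and 74 in 51 SCD cells, which gave 87.6 and 374.5 CPM. C1qb had 27 and 53 UMIs, C1qc 26 and 54, and Cfp 21 and 24. The median depth of these cells was 7708 UMIs in wild-type and 2470 in SCD. Counted per cell, C1qa was 0.685 and 1.45 UMIs and Cfp 0.389 and 0.471, so the libraries lay closer than on the CPM scale. All 4 expressed members were at least 2-fold higher in the SCD library, where 39.8% of the 1610 expressed genes of the class were past 2-fold and 34.3% were higher, and the median log2 ratio of all genes there was 0.72. The log2 ratios were 2.04 for C1qa, 1.99 for C1qb, 2.06 for C1qc and 1.21 for Cfp. With median-of-ratios scaling, a shift of 0.75 without a pseudocount, they were 1.30, 1.26, 1.33 and 0.50, with Cfp then under 2-fold. Both libraries' erythroid cells also carried transcripts from the marker list of red pulp macrophages. The 11 markers of that class summed to 966 CPM in wild-type and 2444 in SCD, and 9 of them were higher in SCD and 2 lower. For 100 C1q UMIs there were 453 marker UMIs in wild-type erythroid cells and 267 in SCD, more than the 232 and 228 of the macrophages. The single markers differed, as Vcam1 had 45.6 and 53.6 UMIs for 100 of C1q, against 58.9 and 52.1 in macrophages, and Hmox1 125.6 and 95.6, against 52.4 and 81.0. Paqr9 had 73 UMIs beside 90 of C1q in wild-type erythroid cells and 48 beside 181 in SCD. In macrophages it had 371 beside 5850 and 176 beside 4824. The cells that these marker transcripts came from were not tested. At 1000 UMIs a cell, 11 of 54 wild-type and 9 of 51 SCD erythroid cells had any C1q, 2 of the wild-type cells with 1 chain, 6 with 2 and 3 with all 3, and 5 of the SCD cells with 2 chains and 4 with all 3. Neutrophil markers in the class summed to 6489 and 16300 CPM. When the UMIs per cell of the class lowest for each gene were subtracted as free RNA, 59.8% of 1105 expressed genes were past 2-fold, and the log2 ratios were 2.36 for C1qa, 2.36 for C1qb, 2.44 for C1qc and 1.83 for Cfp. That level was at most 0.0170 UMIs a cell for each C1q chain. It was 0 for C1qa in both libraries and for C1qb and C1qc in SCD, so no UMIs of these were taken away. Their CPM changed only because UMIs of other genes were taken from the class totals. The part of RNA from other cells above the subtracted level was not tested. At a finer clustering, Leiden resolution 2, none of the 4 was past 2-fold, when 59.1% of all expressed genes were, and the log2 ratios were 0.75, 0.65, 0.80 and -0.0889. When cells with more than 5000 genes were kept and all were clustered again, the erythroid log2 ratios turned to -0.51 for C1qa, -0.42 for C1qb, -0.45 for C1qc and -0.30 for Cfp.

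The balance of the 3 chains was compared between classes, as shares of the C1q UMIs of a class. In macrophages, C1qb made up 24.5% of the C1q UMIs in wild-type (interval 23.4 to 25.6) and 27.9% in SCD (26.6 to 29.2). In neutrophils it made up 28.4% (22.8 to 34.5) and 31.9% (27.7 to 36.3), and in erythroid cells 27 of 90 UMIs and 53 of 181 UMIs, with intervals that reach those of the macrophages. In wild-type cDC2 it was 15.7% of 198 UMIs (10.9 to 21.5) and in wild-type classical monocytes 15.8% of 139 UMIs (10.2 to 23.0), both below the macrophage interval. In SCD classical monocytes the share was 28.5% of 323 UMIs. Of the 133 C1qa UMIs there, 80 came from the 119 cells of cluster 20, whose 40 wild-type cells had 0. This monocyte cluster also carried neutrophil markers, at 135200 CPM in wild-type and 182000 in SCD, and red pulp macrophage markers at 513 and 324. Without it the log2 ratio of C1qa in classical monocytes went from -0.41 to -1.0073. C1qa in wild-type cDC2 was highest in cluster 16, led by Cd209a and Clec10a, at 24.6 CPM and 51 UMIs, against 2.33 and 4 UMIs in the same cluster of the SCD library. The red pulp macrophage markers summed there to 589 CPM in wild-type and 267 in SCD, and their part in the C1qa difference was not tested. Such sums are not particular to macrophages. In SCD non-classical monocytes the sum was 2908 CPM beside 1 C1q UMI. Wild-type neutrophils had 9025 UMIs of the marker Slc40a1 beside 243 of C1q.

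**Figure D2:**
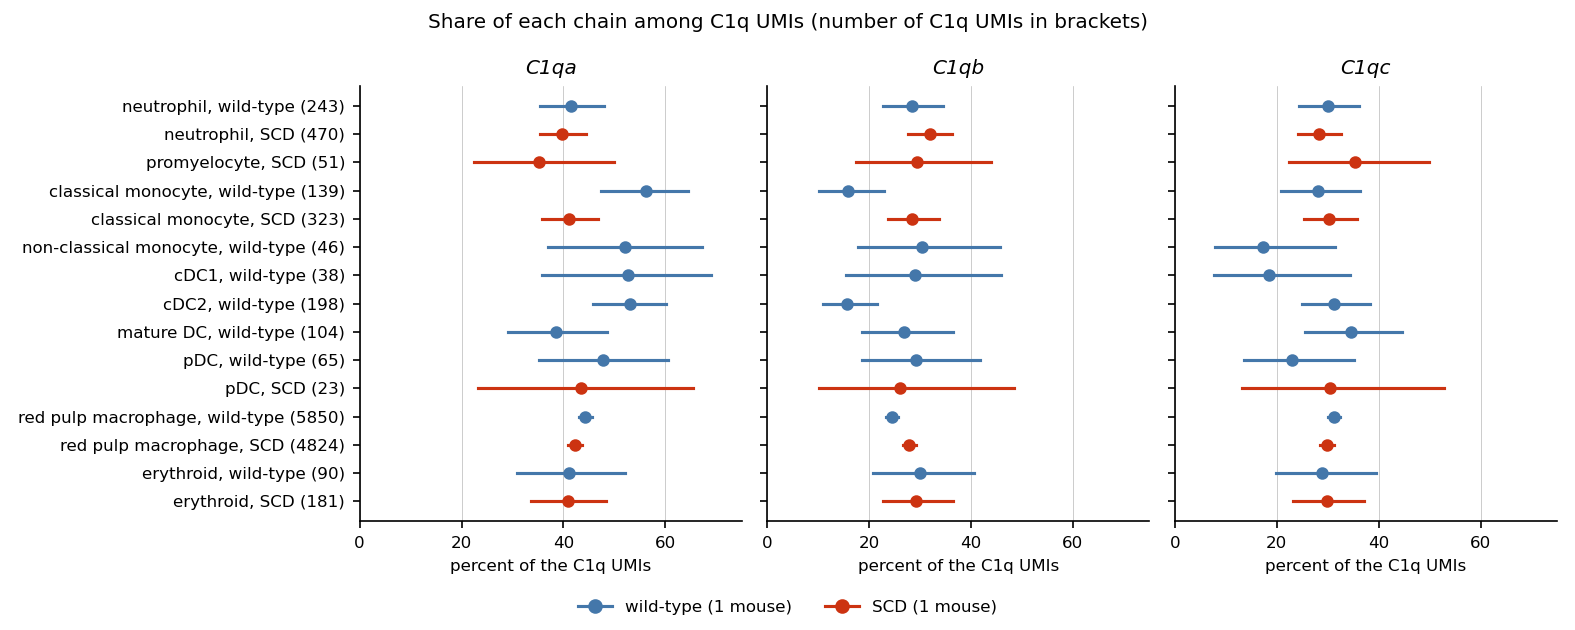
Share of C1qa, C1qb and C1qc among the C1q UMIs of each class and library with at least 20 such UMIs, with 95% binomial intervals, wild-type in blue and SCD in red. The brackets give the number of C1q UMIs. Wild-type classical monocytes and cDC2 have a lower C1qb share (15.8% and 15.7%) than the macrophages (24.5%).

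C3 belonged to the early granulocyte and monocyte classes. It was highest in promyelocytes, the granule-forming precursors of neutrophils, at 688 CPM in wild-type (1117 UMIs) and 605 in SCD (9351 UMIs). Classical monocytes followed with 300.5 and 341, and neutrophils with 253 and 346. In SCD the last 2 did not differ beyond their counting intervals. Non-classical monocytes held 57.5 and 77.6, and in every other class C3 was under 50 CPM in wild-type. In SCD erythroid cells it stood at 75.9 from 15 UMIs, against 14.2 from 6 UMIs in wild-type, a ratio of 5.34 (interval 1.96 to 16.8). At 1000 UMIs a cell, C3 was detected in 41.8% (interval 29.9 to 54.5) of promyelocytes in wild-type and 45.3% (41.6 to 49.0) in SCD, and in 98.5% and 99.6% without thinning. In cDC1, the class with the lowest wild-type level, it was detected in 0 of 159 and 0 of 196 thinned cells, where the exact 95% interval reaches 2.29% and 1.86%.

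The C3 gene lies on the minus strand at chr17:57203970-57228136, and its RefSeq promoter is shown beside those of C1q because its cell pattern was unlike theirs, with a Pearson correlation of -0.13 with C1qa over the 21 combinations. The sequence is chr17:57228137-57228386, read on the gene's strand, with the reversed Maf site core in capitals at position -182. The PU.1 core was not in this window.
C3: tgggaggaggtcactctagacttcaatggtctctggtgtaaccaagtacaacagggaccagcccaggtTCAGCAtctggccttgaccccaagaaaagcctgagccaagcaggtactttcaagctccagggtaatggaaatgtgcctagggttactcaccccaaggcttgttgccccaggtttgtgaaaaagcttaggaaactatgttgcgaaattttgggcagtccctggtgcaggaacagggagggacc

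In the whole libraries C3 was the member with the largest difference. It stood at 129 CPM in wild-type (7836 UMIs) and 331 in SCD (33007 UMIs), a ratio of 2.57 (interval 2.51 to 2.64). Neutrophils held 46.4% and 47.1% of these UMIs, promyelocytes 14.25% and 28.3%, and classical monocytes 30.8% and 22.6%. Promyelocytes were 0.711% of cells in wild-type and 6.79% in SCD. With the wild-type class shares in both libraries, the ratio was 1.59.

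Within the granulocyte and monocyte classes, where C3 was expressed, its ratios were closer to 1. In promyelocytes 2 of 8 members were expressed and 0 were past 2-fold, when 0.373% of all expressed genes were. The C3 ratio there was 0.880 (interval 0.827 to 0.937) and that of C5ar1 1.07 (0.873 to 1.32). In classical monocytes 2 members were expressed and 0 were past 2-fold, against 5.29% of all genes, with a C3 ratio of 1.14 (interval 1.08 to 1.19). In non-classical monocytes the count was 0 of 2, against 3.75%, with a C3 ratio of 1.35 (interval 0.929 to 1.92). In neutrophils 3 members were expressed and 0 were past 2-fold, although 20.7% of all expressed genes were, mostly lower in SCD. The neutrophil C3 ratio was 1.37 (interval 1.32 to 1.42). The log2 ratio of C3 was 0.44 on the CPM scale, where the median of all expressed genes was -0.44. With median-of-ratios scaling, which shifts the neutrophil values by the median log2 ratio without a pseudocount (-0.47), it was 0.91.

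The neutrophils of the libraries were in different clusters, and C3 followed the clusters. In wild-type, 3695 of the 4306 neutrophils were in cluster 0, led by Il1b, Dusp1 and Csf3r, which held 903 of the 6476 SCD neutrophils. C3 in this cluster was 155 CPM in wild-type and 161 in SCD, a ratio of 1.04 (interval 0.917 to 1.18). In cluster 4, with Camp, Ngp, Lcn2 and Ltf among its leading genes, it was 569 and 531. These are granule genes of immature neutrophils. In cluster 1, with Mmp8, Ltf and Ly6g, C3 was 382 and 362. Clusters 21, 6 and 2 gave 417 and 344, 279.6 and 237, and 184 and 125. The range over clusters, from 155 to 569 in wild-type, was thus wider than any difference between the libraries inside a cluster, whose ratios ran from 0.677 to 1.04. In 3 of the 6 clusters the interval of the ratio held 1, and in clusters 2, 4 and 6 C3 was lower in SCD.

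Stage lists gave the same order. Each neutrophil was put in the stage whose gene list took the largest share of its UMIs, the intermediate list holding genes such as Camp and Ltf and the late list genes such as Il1b and Cxcr2. Intermediate cells were 10.3% of neutrophils in wild-type and 51.4% in SCD. C3 was 455 and 419 CPM in the intermediate cells and 159 and 157.5 in the late cells. Within either stage C3 was thus no higher in SCD. With the wild-type cluster shares of cells in both libraries, the neutrophil log2 ratio of C3 went from 0.44 to -0.04. Classical monocytes had C3 ratios from 1.02 to 1.07 in the 3 clusters with at least 20 cells in each library (7, 10 and 20). Wild-type classical monocytes lay mostly in cluster 11 (518 cells, 16 in SCD), where C3 was 301, and SCD ones in cluster 7 (43 and 875 cells), led by Vcan and Fn1, where it was 379 and 404. Across all kept cells, the wild-type shares of the 22 clusters with at least 20 cells in each library brought the C3 ratio from 2.57 to 1.08, with clusters 11 and 22 left out.

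**Figure D3:**
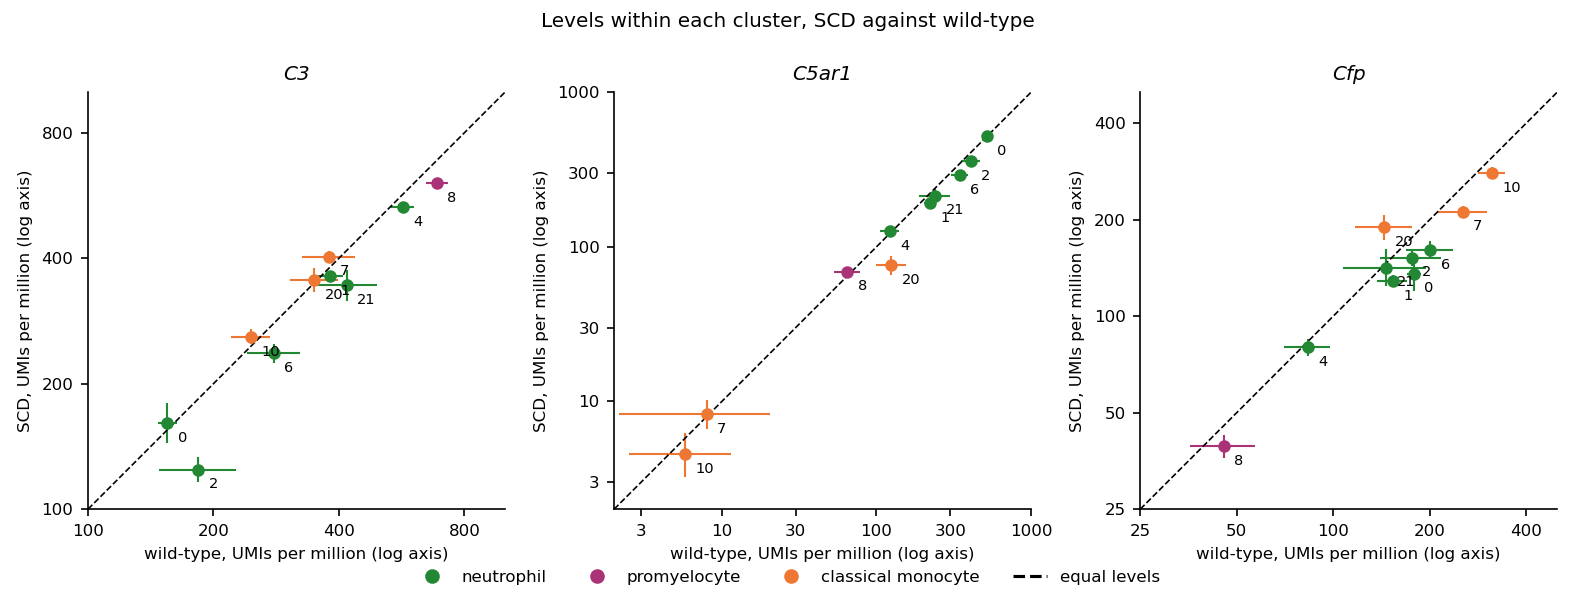
C3, C5ar1 and Cfp in each neutrophil, promyelocyte and classical monocyte cluster, with the wild-type level on the horizontal and the SCD level on the vertical axis, both in CPM on log axes. Bars are 95% counting intervals, numbers name the clusters, and the dashed line marks equal levels. C3 spans 155 to 688 in wild-type over these clusters, while SCD to wild-type ratios in neutrophil clusters stay between 0.677 and 1.04.

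In dendritic cells C3 was below the level called expressed. The SCD to wild-type ratio was 5.06 in pDC (interval 3.88 to 6.65) and 2.44 in cDC2 (1.84 to 3.22). In mature dendritic cells (0.951 to 10.9) and cDC1 (0.813 to 11.4) the interval held 1. C3 stood at 8.62 and 43.6 CPM in pDC (75 and 230 UMIs), at 9.95 and 24.3 in cDC2, at 2.85 and 9.94 in mature dendritic cells (11 and 5 UMIs), and at 1.61 and 4.31 in cDC1 (4 and 12 UMIs). The summed neutrophil markers moved the same way. In pDC they were 5907 and 42400 CPM, in cDC2 939.5 and 4546, in mature dendritic cells 1135 and 6119, and in cDC1 601 and 3683. In pDC 63 of 75 C3 UMIs in wild-type and 197 of 230 in SCD were in cluster 19, with 98 and 67 cells and neutrophil markers at 33710 and 180000 CPM. In the other pDC cluster, cluster 5, C3 was 1.64 and 7.99 CPM from 12 and 33 UMIs, with a ratio of 4.87 (interval 2.45 to 10.4), close to that of the class, and neutrophil markers were at 694 and 4347 CPM. On the log2 scale with the pseudocount of 5 CPM, which shrinks ratios at such low levels, the value without cluster 19 was 0.97 instead of 1.83. The part of neutrophil RNA in these values was not tested. In cDC2 the largest share was in cluster 16, with 166 of 1675 wild-type and 142 of 369 SCD cells. There C3 was lower in SCD, 56.5 and 40.2, with a ratio of 0.712 (interval 0.521 to 0.966), so the class ratio of 2.44 was not seen inside it. In the larger cluster 3 it was 2.10 and 8.95, from 23 and 14 UMIs.

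Properdin was the most widely spread member. Cfp was at its highest in red pulp macrophages and next in cDC2, at 387 CPM in wild-type (5564 UMIs) and 343.5 in SCD (1188 UMIs). It stood at 256 and 187 in pDC, 163 and 124 in neutrophils, 162 and 235 in classical monocytes, 92.0 and 71.9 in cDC1, 45.6 and 39.2 in promyelocytes, 43.0 and 37.8 in non-classical monocytes, and 18.1 and 7.95 in mature dendritic cells. In wild-type, neutrophils and classical monocytes did not differ beyond their intervals, and in SCD classical monocytes stood above pDC. At 1000 UMIs a cell, Cfp was detected in 62.8% and 66.9% of the macrophages, 30.4% and 30.2% of cDC2, and 1.30% and 1.18% of mature dendritic cells. Without thinning cDC2 gave 83.5% and 82.9%. Mature dendritic cells, which carry Ccr7 and Fscn1, thus held the lowest level among dendritic cells in both libraries.

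Cfp was the sole expressed member in cDC1, cDC2 and pDC and was under 2-fold in each. The count was 0 of 1 in cDC1, against 1.04% of all expressed genes, 0 of 1 in cDC2, against 3.07%, and 0 of 1 in pDC, against 1.42%. Mature dendritic cells had 0 expressed members, against 5.35% of genes past 2-fold. The ratio was 0.887 (interval up to 0.945) in cDC2, 0.730 (up to 0.787) in pDC and 0.781 (up to 0.949) in cDC1. The cDC1 log2 ratio changed sign, from -0.34 to 0.09, with total count normalization before clustering. In classical monocytes the Cfp ratio was 1.45 (up to 1.54). Within monocyte clusters 7, 10 and 20 the ratios were 0.836, 0.896 and 1.31. These clusters leave out cluster 11, with 518 of the 697 wild-type monocytes and 16 SCD cells, where wild-type Cfp was 117 CPM, against 254, 313 and 145 in clusters 7, 10 and 20. In neutrophils the Cfp ratios in the 6 clusters ran from 0.762 to 0.969, with intervals that held 1 in clusters 2, 4 and 21, and with median-of-ratios scaling its log2 ratio went from -0.38 to 0.07.

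Over all kept cells Cfp stood at 216 and 144 CPM, a ratio of 0.669 (interval 0.653 to 0.685). Where those UMIs lay changed more than the total. In wild-type 42.4% were in cDC2, 17.9% in neutrophils and 9.92% in classical monocytes. In SCD 8.27% were in cDC2, 38.9% in neutrophils and 35.75% in classical monocytes. The share of cDC2 among cells was 17.8% and 3.47%. With the wild-type class shares in both libraries the Cfp ratio was 0.850.

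**Figure D4:**
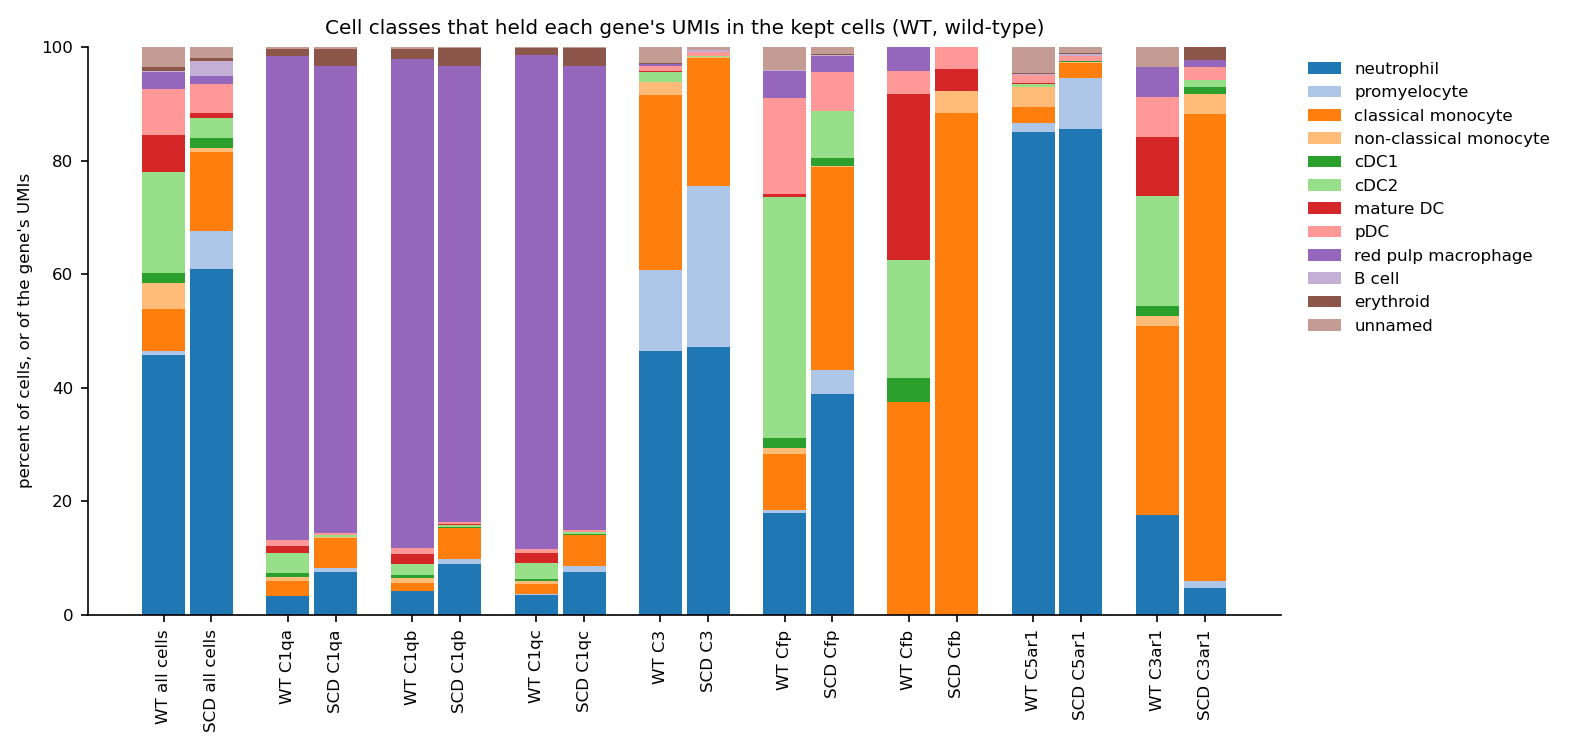
Percent of the kept cells (first pair of bars) and of each gene's UMIs that lay in each cell class, for the wild-type (WT) and the SCD library. Red pulp macrophages hold 80.3% to 87.0% of the C1q UMIs in both libraries, whereas cDC2 hold 42.4% of the Cfp UMIs in wild-type and 8.27% in SCD.

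Factor B was barely detected. Cfb had 24 UMIs in the 9423 wild-type cells and 26 in the 10635 SCD cells. Of these, 9 wild-type and 23 SCD UMIs were in classical monocytes, at 1.12 and 1.05 CPM, and 7 wild-type UMIs were in mature dendritic cells. Neutrophils had 0 UMIs in both libraries, where 3 counts would have given 0.209 and 0.0668 CPM. The gene lies at chr17:34856374-34862518 and overlaps Gm20547 on the same strand, which had 0 UMIs, and reads that fall in both genes are not assigned by standard counting, so the Cfb count is uncertain.

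The receptors were unlike each other. C5ar1, through which C5a draws neutrophils, was a neutrophil gene, at 407 CPM in wild-type (5853 UMIs) and 227 in SCD (10213 UMIs), and 85.0% and 85.5% of its UMIs lay there. Non-classical monocytes and promyelocytes followed, at 78.55 and 61.7, and at 64.7 and 69.1, without a difference between these 2 classes beyond their intervals. Classical monocytes held 24.6 and 14.7, of which 82 of 198 wild-type and 193 of 322 SCD UMIs were in cluster 20, the cluster rich in neutrophil markers. In cDC1, cDC2 and mature dendritic cells it was at or under 5.97. At 1000 UMIs a cell, C5ar1 was detected in 37.3% of neutrophils in wild-type and 24.2% in SCD, and in 0.300% and 0.272% of cDC2. Without thinning the neutrophil shares were 69.7% and 75.1%, an order opposite to that of the levels, at the depths given above.

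Within neutrophils, C5ar1 was lowest in cluster 4, where C3 was highest. It was 519.6 and 521 in cluster 0, 407 and 359 in cluster 2, 345 and 292 in cluster 6, 239.9 and 214 in cluster 21, 223 and 191 in cluster 1, and 122 and 126 in cluster 4, wild-type first. From the immature cluster 4 to cluster 0, C5ar1 was thus higher in each library while C3 was lower, but not at every step between them. In SCD, both genes were higher in cluster 0 than in cluster 2. The ratio over all neutrophils was 0.558 (interval up to 0.576), or a log2 ratio of -0.83, and -0.37 with median-of-ratios scaling. With free RNA subtracted the log2 ratio was -1.12, past 2-fold. With the wild-type cluster shares in both libraries it was -0.04, and inside clusters the ratios ran from 0.845 to 1.03, with intervals that held 1 in 4 of 6. In cells of the late list it was 508 in wild-type and 366 in SCD. Over all kept cells C5ar1 was nearly level, at 113 and 119.9 CPM, with a ratio of 1.06 (interval 1.03 to 1.09).

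C3ar1 was rare, with 57 UMIs in the wild-type and 85 in the SCD library. Classical monocytes held 19 and 70 of them, at 2.36 and 3.20 CPM, with a ratio of 1.35 (interval 0.807 to 2.38). It was detected in 2.58% and 4.01% of these monocytes without thinning and in 0.144% and 0.340% at 1000 UMIs. In classical monocytes a difference between libraries was not detectable at this depth. Neutrophils had 10 UMIs in wild-type and 4 in SCD, a ratio of 0.128 (interval 0.0293 to 0.443). All 10 wild-type UMIs were in cluster 0, which had 3695 wild-type and 903 SCD cells, and there the intervals overlapped, at 1.12 CPM (0.537 to 2.06) and 0 (up to 1.90). Non-classical monocytes had 1 and 3, a ratio of 18.5 (1.48 to 969.8). No class reached the level called expressed.

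For each member, the 3 genes outside the complement lists with the most similar pattern over the 21 combinations were found among 6421 genes. For C1qa they were Ccr3 (0.99), Kcnj10 (0.98) and Abcc3 (0.98), and Ccr3 and Kcnj10 also led for C1qb and C1qc, with Cela1 next. For C3 they were Hp (0.97), Svip (0.95) and Prdx5 (0.94). Hp encodes haptoglobin, a binder of free hemoglobin. For C5ar1 they were Fpr2 (0.95), a receptor of formylated peptides on neutrophils, Rnf144a (0.95) and G0s2 (0.93). For Cfp they were Cd200r1 (0.89), Ndst1 (0.85) and Gpr146 (0.80). For C3ar1 the closest were Htatip2 (0.84), Gss (0.78) and Slc30a1 (0.78), and for Cfb Rap2b (0.78), Anxa4 (0.77) and Slc26a2 (0.77), both from few UMIs. These are Pearson correlations of log2 levels over combinations that share libraries, given as a description.

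A list of 46 other complement genes was read in the same way, and 45 were in the files. Between 4 and 9 of them were expressed in a class. In red pulp macrophages 1 of 9 was at least 2-fold higher in SCD and 2 were lower, against 3.05% and 5.14% of all expressed genes. Fcna, encoding ficolin A, a lectin that starts complement on sugars, stood at 1320 and 2662 CPM. C6, a component of the membrane attack complex, stood at 572 and 250 from 354 and 105 UMIs, and Itgax, a chain of complement receptor 4, at 76.0 and 21.4 from 47 and 9 UMIs. In neutrophils 1 of 8 was higher and 3 were lower, against 1.27% and 19.5% of all genes. Fcnb, encoding the granule lectin ficolin B, was 57.6 and 126, whereas Cd93 was 239 and 23.4, Itgax 115 and 13.4, and C5ar2, the second C5a receptor, 207 and 50.2. C5ar2 was 306 and 247 in cluster 0 and 19.3 and 17.7 in cluster 4, and Fcnb was 0.672 and 3.61 in cluster 0 and 412 and 404 in cluster 4. Itgax was 178 and 175 in cluster 0, with 3695 wild-type and 903 SCD cells, so its class difference was not seen there. In the other 5 neutrophil clusters it was lower in SCD, with intervals apart in cluster 1, at 7.34 and 1.53, and overlapping in clusters 2, 4, 6 and 21, at 47.0 and 29.9, 2.84 and 0.903, 7.28 and 1.56, and 37.4 and 14.5. Cd93 was lower in SCD in each of the 6 neutrophil clusters, at 366 and 179 in cluster 0, 124.6 and 27.7 in cluster 21, 51.0 and 18.9 in cluster 6 and 16.1 and 7.79 in cluster 1. In clusters 2 and 4, at 67.5 and 53.4 and at 7.94 and 5.34, the intervals of the libraries overlapped.

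In the other classes few of the list were past 2-fold. In classical monocytes Cd93, at 306 and 146, was the only 1 of 8 past 2-fold, lower in SCD, against 2.56% of all genes. The libraries filled different clusters of the class, and 518 wild-type but 16 SCD cells were in cluster 11, where wild-type Cd93 was 378. In cluster 7 it was 230 and 198 and in cluster 10 77.5 and 94.9, with intervals that overlapped in both, whereas in cluster 20 it was 241 and 92.3. In pDC 1 of 6 was higher, against 1.13% of all genes, namely Itgam, a chain of complement receptor 3, at 24.0 and 58.4, of which 164 of 209 wild-type and 257 of 308 SCD UMIs were in cluster 19. In erythroid cells 2 of 7 were higher and 1 was lower, against 34.3% and 5.53% of all genes. Fcna, at 35.5 and 339, and Calr, at 196.5 and 460.5, were higher and Itgax, at 54.5 and 10.1, was lower. In promyelocytes, non-classical monocytes, cDC1 and mature dendritic cells 0 of the expressed genes of the list passed 2-fold.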

How the data were processed

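Spleen cells of 1 wild-type and 1 SCD mouse were profiled by droplet single-cell RNA sequencing of transcript 3′ ends. The authors deposited raw UMI counts per gene and cell. Per the labels' processing notes, Cell Ranger 4.0.0, R 4.4, Seurat 3.2.3, Scanpy 1.6.0 and the build GRCm38.p6 were used. Gene positions are from GENCODE for GRCm38.

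Cells with 500 to 5000 detected genes, a mitochondrial share under 15% and a ribosomal share under 30% were kept. Scrublet called 367 wild-type and 205 SCD cells doublets (3.90% and 1.93% of the kept cells), which stayed in. Counts were normalised with scran 1.30.0 (R 4.3.3), and both libraries were clustered together (scanpy 1.11.5, leidenalg 0.10.2, resolution 1, Python 3.11.15), with complement genes left out of the variable genes. Clusters were named from marker lists. A cluster stayed unnamed where markers of another class outnumbered its own among its 10 leading genes, where fewer than 3 of its markers were detected, where its 2 best marker scores lay within 0.05, or where at least 5 of those genes were immunoglobulin genes. The last 2 rules were set with the data at hand. Raw counts were summed per class and library and given as CPM of the class. Ratios carry exact conditional intervals, levels exact Poisson and shares Clopper-Pearson intervals, all 95% and covering counting error only. Log2 ratios use a pseudocount of 5 CPM, and 2-fold is meant on that scale where genes are counted. No test was possible with 1 library per genotype.

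The members and all lists were chosen with earlier results of these data known. All 8 members are named, with the other complement genes that were expressed and past 2-fold in a class (at most 6 per class; a result of this list in cDC2 is not reported here), and for each member the 3 most similar genes, where mitochondrial, ribosomal, immunoglobulin, globin and Y-linked genes were left out. The alternatives were other cell filters, doublet removal, cluster resolutions and normalisations, clustering each library alone, other pseudocounts and minimums, thinning, a subtraction of free RNA, and class, stage or cluster weights. The summing code was tested on simulated data.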

Additional observations from a re-analysis of the deposited data

Results flagged for a closer look

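Cells with more than 5000 detected genes were left out of the comparisons, 295 in the wild-type and 1220 in the SCD library by the other filters. C3 stood there at 64.89 CPM in SCD (4704 UMIs) and 35.56 in wild-type (664 UMIs), so its level was above that of the control library in cells outside the comparisons. The levels are sums over these cells whatever their class, and their mix of classes was not compared. Cfp stood at 70.66 in SCD (5122 UMIs) and 52.16 in wild-type (974 UMIs) in the same cells. For the other 6 members the SCD interval did not lie above the wild-type interval. C5ar1 stood at 6.594 in SCD (interval 6.016 to 7.212) and 5.141 in wild-type (4.165 to 6.279).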

How the results depend on the processing

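No paired analysis was possible because only 1 mouse stood for each genotype. Of the counts, shares and whole-library values, 124 kept their value within the limits set and 20 moved. Counts of members had little room to move where few were expressed, 0 in mature dendritic cells and 1 each in cDC1, cDC2 and pDC. The whole-library log2 ratios given below were among the values that moved. Of the log2 ratios and shares of cells of single genes, 944 kept theirs, 315 moved and 5 were reversed. The erythroid count of members past 2-fold went from 4 to 0 at Leiden resolution 2 and to 0 with no upper limit on detected genes. At resolution 2 the erythroid log2 ratio of Cfp was -0.0889, and without the upper limit those of C1qa, C1qb, C1qc and Cfp were -0.51, -0.42, -0.45 and -0.30. The cause was not tested. The erythroid class had too few cells for a value with each library clustered alone, at least 1000 genes or a mitochondrial share under 5%. The count went from 0 to 1 in pDC with a mitochondrial share under 5% (C3), and in neutrophils (C5ar1) and red pulp macrophages (C3) with free RNA subtracted. Without a minimum level, the share of all genes past 2-fold was 7.86% in neutrophils, 3.25% in classical monocytes and 2.01% in cDC2. With wild-type class shares, the whole-library log2 ratios were 0.0581 for C1qa, 0.30 for C1qb, 0.0822 for C1qc, 0.65 for C3, -0.23 for Cfp and -0.20 for C5ar1. With wild-type cluster shares, a choice made after seeing the data like the removal of clusters 19 and 20, they were 0.46, 0.67, 0.47, 0.10, -0.20 and -0.0778. Among the expressed members, the sign also changed under some alternative for Cfp in cDC1 (0.09 at the highest), classical monocytes (-0.08 with cluster shares, which leave out cluster 11), neutrophils and red pulp macrophages, for C5ar1 in promyelocytes and non-classical monocytes, and for C3 in neutrophils. The C1q ratios in red pulp macrophages stayed above 0 under the 12 alternatives run for them, C1qa from 0.08 to 0.34.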
